A study of Saccharomyces cerevisiae with 23 samples.

Results

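The genes described here are 48 pre-60S ribosome assembly factors of budding yeast (Saccharomyces cerevisiae), which were chosen by name from the 6596 genes of the deposited count table. The list named NOP2, NOP4, NOP7, NOG1, NSA2, MAK16, DBP3, RPF2, RRS1, PWP1, ERB1, YTM1, TIF6, MRT4, SYO1 and 33 others, and its rule used names alone, although earlier results of these data were known when it was made. All 48 genes were in the table, and all 48 passed the low-count filter that left 6111 genes for testing. RNA was sequenced from 23 libraries in 8 groups to compare aneuploid populations (mixtures of cells with differing chromosome imbalances) with euploid populations. Tetrad dissection, which separates the spores of a meiosis, gave the aneuploid populations T1 and T2 and 1 euploid population. The route named a-selection in the labels gave the aneuploid populations A1, A2 and A3 and 1 euploid population. There were 3 libraries of each of the 7 populations and 2 of a haploid control, which is euploid. The labels name BY4741, a common laboratory strain, for every library. Cells of every group came from overnight cultures in rich medium (YPD) that were given fresh YPD for 4 h at 23 °C.

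The large (60S) ribosomal subunit is built in the nucleolus on a long precursor rRNA, to which assembly factors bind in turn as the RNA folds, is cut and takes up ribosomal proteins. Helicases, GTPases and other enzymes then release these factors stepwise until the particle is exported and matured in the cytoplasm. In yeast the genes of these factors belong to the ribosome biogenesis regulon, which is transcribed strongly in fast growth and is shut down when glucose runs out. Many of their promoters carry a PAC motif, which the repressors Tod6 and Dot6 bind, and an RRPE motif, which Stb3 binds.

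The promoter stretches of 8 of the 48 genes are shown because they hold the range of motif layouts and of responses described further on. They were read 5′ to 3′ on the strand of the gene from the RefSeq assembly R64, in lower case, with PAC core matches (GATGAG, or its reverse complement CTCATC) and RRPE core matches (AAAATTTT) in capitals. MAK16 lay at chrI:101252-101291 (minus strand), NOP7 at chrVII:695264-695332 (plus), DBP3 at chrVII:361985-362026 (minus), NOG1 at chrXVI:370823-370887 (plus) and SYO1 at chrIV:340274-340340 (minus). PWP1 lay at chrXII:543823-543862 (plus), SPB1 at chrIII:31304-31335 (plus) and TIF6 at chrXVI:593147-593319 (minus).
MAK16: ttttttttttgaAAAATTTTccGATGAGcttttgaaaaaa
NOP7: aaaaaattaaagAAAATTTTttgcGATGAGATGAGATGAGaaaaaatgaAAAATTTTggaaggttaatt
DBP3: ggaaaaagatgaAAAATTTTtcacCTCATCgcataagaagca
NOG1: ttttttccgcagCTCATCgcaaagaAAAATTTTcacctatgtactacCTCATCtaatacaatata
SYO1: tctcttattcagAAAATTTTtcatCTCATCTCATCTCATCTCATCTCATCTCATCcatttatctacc
PWP1: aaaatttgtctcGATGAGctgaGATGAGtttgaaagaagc
SPB1: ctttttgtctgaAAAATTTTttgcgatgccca
TIF6: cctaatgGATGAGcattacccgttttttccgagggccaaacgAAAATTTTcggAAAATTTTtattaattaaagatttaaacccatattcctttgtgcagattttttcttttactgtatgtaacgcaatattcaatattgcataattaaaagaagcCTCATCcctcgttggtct

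Searched on both strands over 250 bases before and 50 bases from each annotated start, with overlapping matches counted, the PAC core was present in 46 of 48 genes (95.8%). It was present in 20.4% of the windows of all 6001 nuclear protein-coding genes. The RRPE core was present in 41 of 48 (85.4%), against 9.03% of all windows, and both cores were present in 39 of 48 (81.2%), against 4.38%. The longer PAC form GCGATGAG was present in 30 of 48 (62.5%), against 3.93% of all windows. None of the 48 windows lacked both cores, whereas 75% of all windows did. MAK5, NOP4, NOP13, NOP16, PWP1, RRP1 and SSF1 had the PAC core without the RRPE core, and NSA1 and SPB1 had the RRPE core without the PAC core. The first base of the matches before the start lay at a median of -120.5 bases for PAC and -141 bases for RRPE. In 36 of the 39 genes with both, the nearest PAC core was closer to the start than the nearest RRPE core, and the median distance between their first bases was 23 bases. PAC lay on the gene's strand in 48 matches and on the other strand in 40, and 29 genes had 2 or more. SYO1 held 6 PAC cores in a run and had the most. A match is a description of these letters and was not tested for binding.

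**Figure D1:**
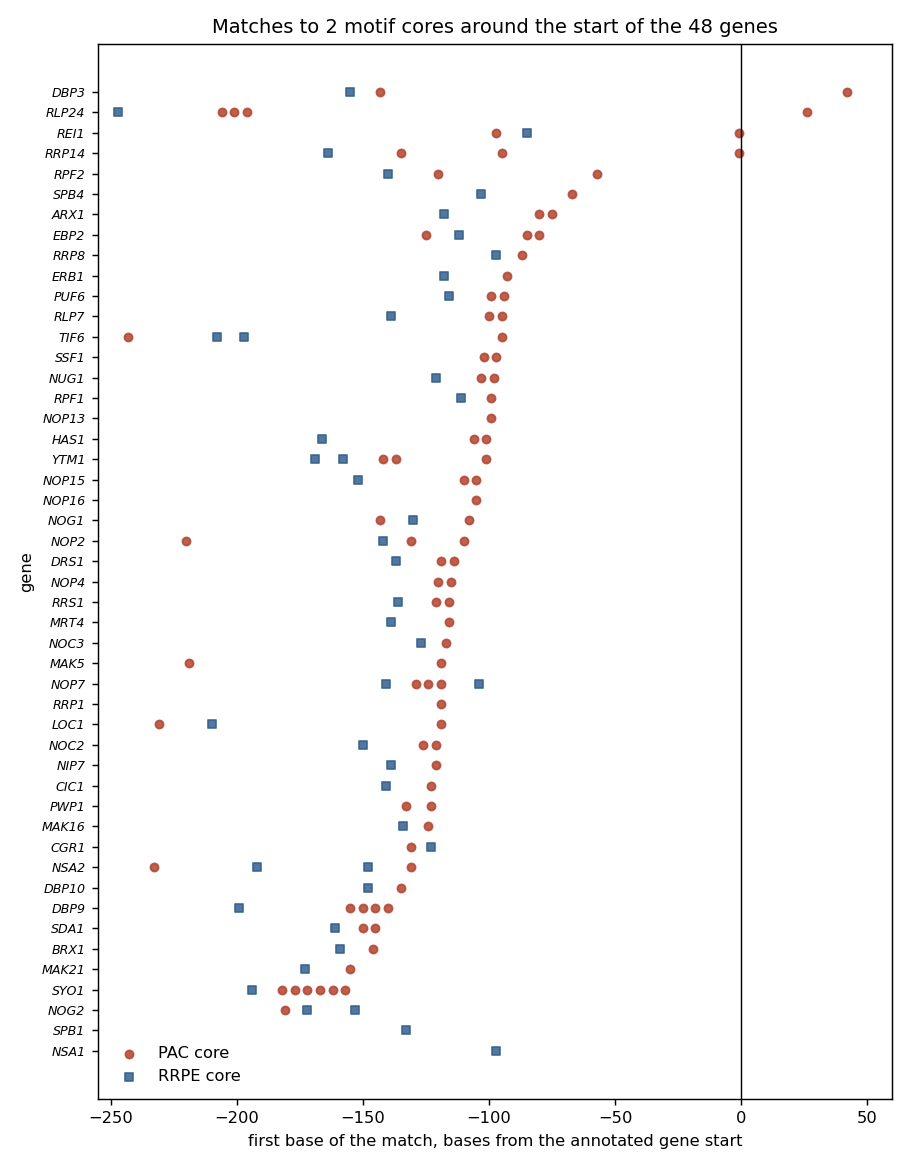
Positions of PAC core (circles) and RRPE core (squares) matches for each of the 48 genes (rows), in bases from the annotated gene start; genes are ordered by the PAC match nearest the start. The median match sits at -120.5 bases for PAC and -141 bases for RRPE, and in 36 of 39 genes with both cores the nearest PAC is on the start side of the nearest RRPE.

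The 48 genes were more abundant in every aneuploid population than in the euploid population of the same route, and most abundant in the haploid control. Levels are read counts scaled to library size (CPM) with TMM factors, from the trimmed mean of M-values. The summed level of the 48 genes was 1277, 1290.1 and 1246 CPM in the T1 libraries and 3856, 3788 and 3789 in T2, against 235, 232 and 239 in the euploid tetrad libraries. It was 1343, 1296 and 1322 CPM in A1, 1591, 1614 and 1639 in A2 and 4055, 4095 and 4076 in A3, against 449, 459 and 448 in the euploid a-selection libraries. The haploid control libraries had 10612 and 10776 CPM. The groups did not overlap in this sum, although the highest T1 library and the lowest A1 library differed little. T2 and A3 stood apart from T1, A1 and A2, and both euploid populations stood below all of them. In a bulk sample, fewer cells that express a gene and less of its RNA per cell cannot be told apart.

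The order of the groups was nearly the same in each gene. The haploid control had the highest mean level in 48 of 48 genes. A3 was the next highest in 33 genes and T2 in the other 15. A1, A2 and T1 took ranks 4 to 6. The euploid a-selection population was next to lowest and the euploid tetrad population lowest in 47 of 48, the exception being the helicase gene DBP10, in which they changed places.

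**Figure D2:**
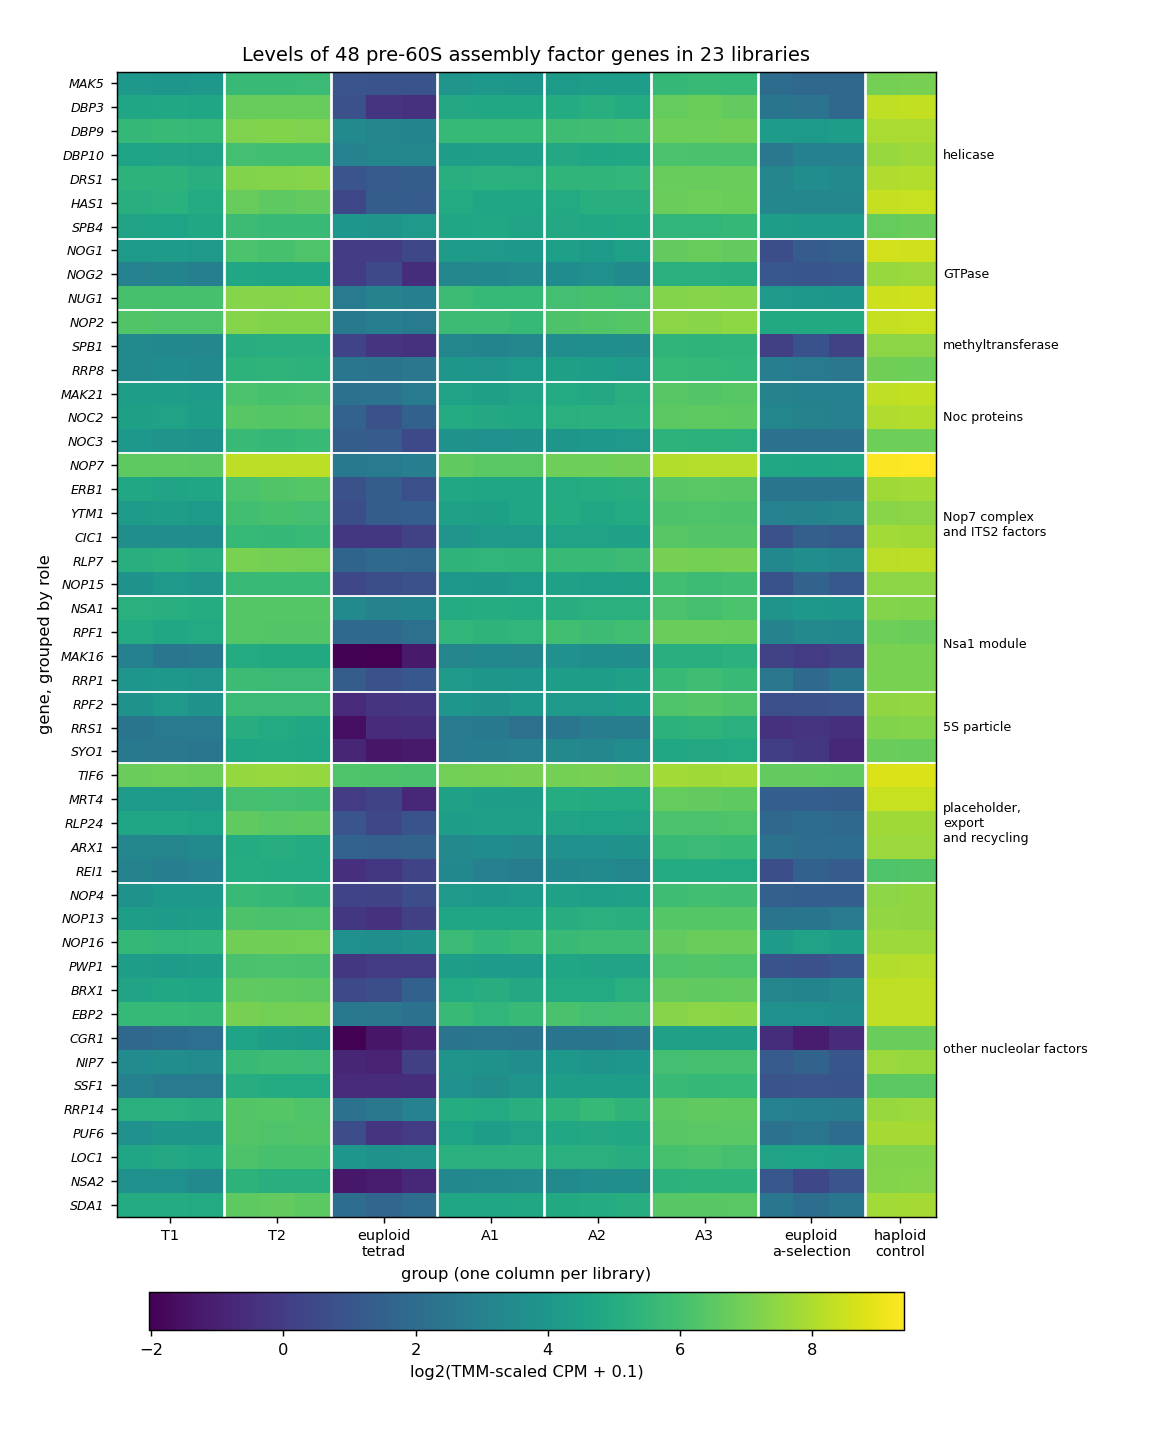
Level of each of the 48 genes (rows, grouped by role) in each of the 23 libraries (columns, grouped), as log2 of TMM-scaled CPM plus 0.1. The euploid tetrad and euploid a-selection columns are darkest, the haploid control columns are brightest in all 48 rows, and TIF6, SPB4 and LOC1 vary least along their rows.

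In edgeR's quasi-likelihood test, with Benjamini-Hochberg adjustment over the 6111 genes and calls at an adjusted p under 0.05, all 48 genes rose in T1, where 38.2% of all tested genes were called higher. All 48 also rose in T2, where 40.5% were called higher, and in the mean of T1 and T2 (39.9%). In the a-selection route all 48 rose in A1 (36.6% of all tested genes called higher), A2 (36.4%), A3 (40.2%) and the mean of the 3 (39.8%). The median log2 change of the 48 genes was 3.51 for T1 and 5.23 for T2, both against the same euploid tetrad libraries, and 2.13, 2.49 and 3.74 in A1, A2 and A3. Over all tested genes the median was -0.04 in both tetrad populations and 0.01, 0.00 and 0.00 in A1, A2 and A3. The largest adjusted p among the 48 genes was 1.2e-14 for the mean of T1 and T2 and 3.14e-11 for the mean of A1, A2 and A3. In each of the 48 genes, every aneuploid library of a route lay above every euploid library of that route, which held for 33.9% of all tested genes in the tetrad route and 29% in the a-selection route. No label ties the replicate libraries to separate cultures, so these p-values measure only the spread between libraries, which may be technical.

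**Figure D3:**
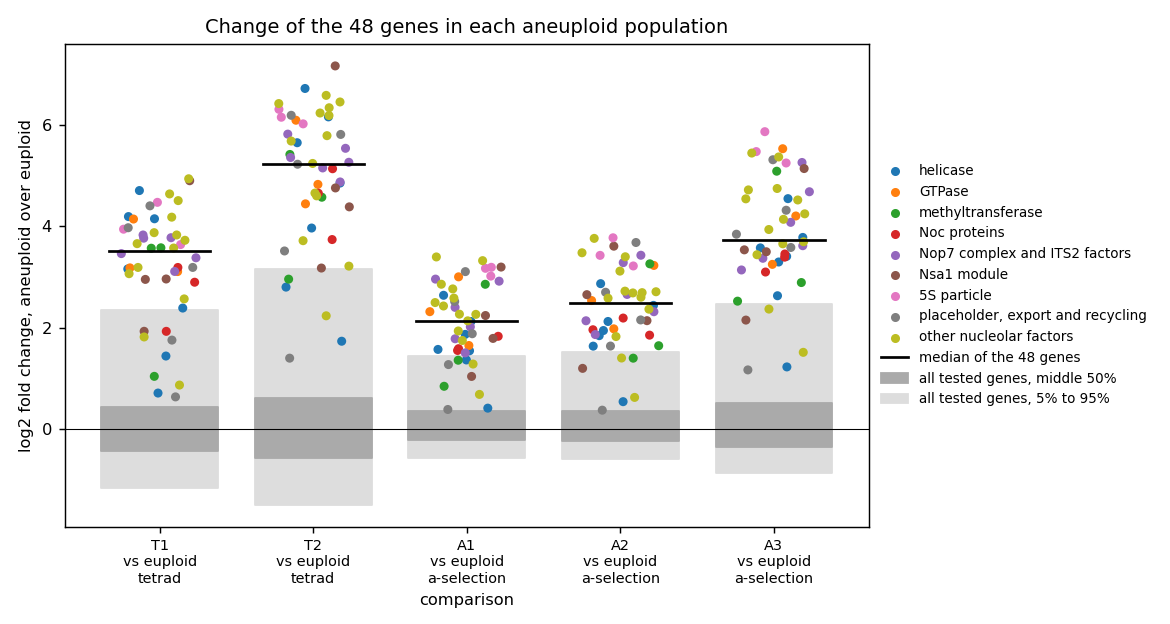
Log2 fold change of the 48 genes (points, coloured by role) in each aneuploid population over the euploid population of its route; black lines mark their medians and grey bands the middle 50% and the 5% to 95% range of all 6111 tested genes. All points lie above 0, and the medians run from 2.13 in A1 to 5.23 in T2.

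With the population as the unit (libraries summed, route as a term, 4 residual degrees of freedom), 42 of 48 genes were called higher in the aneuploid populations, where 13.9% of the 6256 genes in that fit were called higher. The median log2 change was 3.54. ARX1, LOC1, NOP2, RRP8, SPB4 and TIF6 were not called, with adjusted p between 0.0533 and 0.0824, and all 6 were higher. None of the 48 genes was called by edgeR in this fit when T1, T2, A2 or A3 was left out, although 48, 47, 48 and 46 of the 48 genes were higher at an unadjusted p under 0.05. Of all genes in those edgeR fits, 22.1%, 20.7%, 21.1% and 20.4% were higher at that p. DESeq2 called the same numbers of the 48 genes in the same order, where it called 20.5%, 19.1%, 18.9% and 18.4% of all genes higher. With no population left out DESeq2 called all 48, and 21.3% of all genes. Each route had a single euploid population, so that what is particular to that population cannot be told apart from ploidy.

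The Nop7 complex binds early pre-60S particles and is needed to process the spacer ITS2, and it comprises NOP7, ERB1 and YTM1. NOP7 (YGR103W) had 94.1, 92.7 and 91.2 CPM in the T1 libraries and 305, 300.1 and 306 in the T2 libraries, against 5.91, 6.58 and 7.11 in the euploid tetrad libraries. Its level was 97.8, 89.5 and 87.6 in the A1 libraries, 116, 115 and 121 in A2 and 272, 278 and 277 in A3, against 27.5, 25.7 and 26.9 in the euploid a-selection libraries, and 642 and 669 CPM in the haploid control libraries. With no correction for gene length, NOP7 had the highest CPM of the 48 genes in T2, A3 and the haploid control and held 6.13% of their summed CPM in the haploid control. The log2 change was 4.68 ± 0.05 in the tetrad comparison and 2.43 ± 0.04 in the a-selection comparison (SE). ERB1 had 27.5, 24.6 and 25.5 CPM in the T1 libraries and 71.5, 78.8 and 81.9 in the T2 libraries, against 1.63, 2.39 and 1.57 in the euploid tetrad libraries. In the a-selection route ERB1 had 28.1, 26.6 and 26.0 in the A1 libraries, 30.6, 32.2 and 33.97 in A2 and 86.3, 87.1 and 85.5 in A3, against 5.27, 5.05 and 4.98 in the euploid a-selection libraries, and the haploid control libraries had 216 and 222 CPM. YTM1, whose protein binds Erb1 and is removed by the ATPase Rea1, had 18.1, 20.2 and 17.9 CPM in the T1 libraries and 60.7, 66.8 and 63.5 in the T2 libraries, against 1.55, 2.46 and 2.48 in the euploid tetrad libraries. Its level was 22.7, 21.7 and 26.3 in the A1 libraries, 31.6, 28.0 and 31.5 in A2 and 72.4, 74.4 and 73.5 in A3, against 8.06, 8.22 and 8.76 in the euploid a-selection libraries, and 165 and 169 CPM in the haploid control libraries. The changes of ERB1 were 4.57 ± 0.09 in the tetrad comparison and 3.04 ± 0.07 in the a-selection comparison, and those of YTM1 were 3.99 ± 0.10 in the tetrad comparison and 2.17 ± 0.07 in the a-selection comparison. The 3 further genes of this role, CIC1, RLP7 and NOP15, encode proteins that bind in the ITS2 region, and all 6 genes had log2 changes of 3.99 to 4.79 in the tetrad comparison and 2.17 to 3.88 in the a-selection comparison.

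The Nsa1 module (NSA1, RPF1, MAK16 and RRP1) joins the particle in the nucleolus. It held both the gene with the largest tetrad change, MAK16, and one of the weaker responders, NSA1. MAK16 (YAL025C) had 7.79, 5.41 and 5.98 CPM in the T1 libraries and 31.8, 30.1 and 30.3 in the T2 libraries, against 0.155, 0.145 and 0.331 in the euploid tetrad libraries. Its level was 8.86, 9.75 and 9.56 in the A1 libraries, 13.1, 12.3 and 11.9 in A2 and 35.8, 34.5 and 37.8 in A3, against 1.07, 0.913 and 1.07 in the euploid a-selection libraries, and 135 and 136 CPM in the haploid control libraries. The log2 change was 6.03 ± 0.19 in the tetrad comparison and 3.98 ± 0.12 in the a-selection comparison. The euploid tetrad value rested on 8 counts over 3 libraries (2 to 4 each), against 1836 counts over the 6 aneuploid tetrad libraries. The ratio of these sums per scaled depth was 85.3, with an exact 95% interval of 43.2 to 198 that covers counting error only. The mean level of MAK16 in the haploid control was 645 times that in the euploid tetrad population. NSA1 changed by 2.55 ± 0.06 in the tetrad comparison and 1.46 ± 0.05 in the a-selection comparison, RPF1 by 3.67 ± 0.07 in the tetrad comparison and 2.81 ± 0.05 in the a-selection comparison and RRP1 by 3.86 ± 0.12 in the tetrad comparison and 2.47 ± 0.09 in the a-selection comparison. Of the 48 genes, 6 had fewer than 10 counts in every euploid tetrad library and none did in the euploid a-selection libraries.

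The 5S particle factors had the highest median change of any role, 5.05 in the tetrad comparison and 4.03 in the a-selection comparison (log2, 3 genes). In the euploid tetrad libraries RPF2, RRS1 and SYO1 rested on 26, 18 and 14 counts in all, which limits the precision of this tetrad median. RPF2 and RRS1 encode a pair that brings the 5S rRNA and the proteins Rpl5 and Rpl11 into the subunit. RPF2 had 13.9, 17.0 and 14.2 CPM in the T1 libraries and 54.0, 54.1 and 53.1 in the T2 libraries, against 0.544, 0.723 and 0.744 in the euploid tetrad libraries. RPF2 was at 15.7, 13.8 and 16.7 in the A1 libraries, 17.4, 17.7 and 20.5 in A2 and 75.1, 79.9 and 74.0 in A3, against 1.60, 1.64 and 1.89 in the euploid a-selection libraries, and at 179.6 and 184 CPM in the haploid control libraries. RRS1 had 5.14, 6.35 and 6.09 CPM in the T1 libraries and 33.9, 30.5 and 27.6 in the T2 libraries, against 0.233, 0.578 and 0.579 in the euploid tetrad libraries. RRS1 was at 6.07, 5.89 and 4.48 in the A1 libraries, 5.40, 6.87 and 6.75 in A2 and 39.6, 42.3 and 37.1 in A3, against 0.652, 0.730 and 0.630 in the euploid a-selection libraries, and at 148 and 152 CPM in the haploid control libraries. RRS1 was 6.28-fold higher in A3 than in A2, the largest difference between those populations among the 48 genes. SYO1 encodes the chaperone that imports Rpl5 with Rpl11, and it had the lowest level per kilobase of the 48 genes over all libraries. SYO1 had 5.91, 5.72 and 5.35 CPM in the T1 libraries and 25.7, 26.9 and 26.0 in the T2 libraries, against 0.466, 0.289 and 0.331 in the euploid tetrad libraries. SYO1 was at 6.50, 6.63 and 7.65 in the A1 libraries, 10.1, 9.57 and 11.6 in A2 and 26.8, 28.9 and 30.8 in A3, against 0.948, 0.791 and 0.504 in the euploid a-selection libraries, and at 108 and 106 CPM in the haploid control libraries. The changes were 5.39 ± 0.13 in the tetrad comparison and 4.02 ± 0.10 in the a-selection comparison for RPF2. They were 4.83 ± 0.19 in the tetrad comparison and 4.03 ± 0.17 in the a-selection comparison for RRS1 and 5.05 ± 0.16 in the tetrad comparison and 4.07 ± 0.13 in the a-selection comparison for SYO1. SYO1 overlaps YDL062W on the other strand by 278 bases, and that gene had 215 counts in all against 6915 for SYO1; strand handling in the counting is not stated.

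Of the 7 DEAD-box RNA helicases, DBP3 responded most and SPB4 least. DBP3 had 25.7, 26.9 and 26.6 CPM in the T1 libraries and 107, 107 and 106 in the T2 libraries, against 1.63, 0.723 and 0.661 in the euploid tetrad libraries. DBP3 was at 29.1, 27.8 and 27.0 in the A1 libraries, 32.2, 34.6 and 31.6 in A2 and 102, 113 and 100.01 in A3, against 5.15, 4.81 and 3.47 in the euploid a-selection libraries, and at 314 and 324 CPM in the haploid control libraries. One euploid tetrad library was higher than the other two in DBP3, and all lay far below the aneuploid ones. SPB4 had 24.5, 24.2 and 28.3 CPM in the T1 libraries and 55.4, 50.2 and 51.2 in the T2 libraries, against 15.3, 14.5 and 17.5 in the euploid tetrad libraries. SPB4 was at 26.6, 27.6 and 24.6 in the A1 libraries, 28.6, 28.0 and 29.4 in A2 and 46.3, 45.1 and 46.8 in A3, against 20.2, 19.5 and 19.5 in the euploid a-selection libraries, and at 102 and 110.5 CPM in the haploid control libraries. The log2 changes were 5.71 ± 0.12 in the tetrad comparison and 3.35 ± 0.08 in the a-selection comparison for DBP3, and 1.22 ± 0.06 in the tetrad comparison and 0.72 ± 0.05 in the a-selection comparison for SPB4. HAS1, MAK5, DBP9, DBP10 and DRS1 lay between them, with tetrad changes of 4.90, 4.01, 3.18, 2.12 and 5.18.

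The GTPases Nog1, Nog2 and Nug1 act on nuclear pre-60S particles. NOG1 had 18.2, 18.9 and 17.8 CPM in the T1 libraries and 70.0, 67.6 and 75.4 in the T2 libraries, against 0.933, 0.940 and 1.24 in the euploid tetrad libraries. NOG1 was at 18.5, 17.9 and 16.5 in the A1 libraries, 21.5, 18.3 and 22.3 in A2 and 101, 107 and 98.6 in A3, against 1.54, 2.37 and 2.71 in the euploid a-selection libraries, and at 387 and 379 CPM in the haploid control libraries. The log2 change was 5.12 ± 0.13 in the tetrad comparison and 3.92 ± 0.10 in the a-selection comparison for NOG1, 3.97 ± 0.13 in the tetrad comparison and 3.02 ± 0.10 in the a-selection comparison for NOG2, and 3.81 ± 0.06 in the tetrad comparison and 2.29 ± 0.05 in the a-selection comparison for NUG1. Among the methyltransferases of 25S rRNA, NOP2 (a cytosine methyltransferase) had 79.0, 75.5 and 74.6 CPM in the T1 libraries and 160.3, 150.4 and 149.9 in the T2 libraries, against 5.98, 7.01 and 6.28 in the euploid tetrad libraries. NOP2 was at 55.6, 55.04 and 49.0 in the A1 libraries, 73.9, 78.9 and 82.0 in A2 and 171, 166 and 174 in A3, against 29.7, 29.8 and 29.7 in the euploid a-selection libraries, and at 329.7 and 342 CPM in the haploid control libraries. The euploid a-selection libraries held more NOP2 than the euploid tetrad ones by 2.20 ± 0.07 (log2), while T1 and A2 did not differ past the threshold (-0.03 ± 0.05, adjusted p = 0.543 in edgeR). SPB1, a ribose methyltransferase and the gene with the next-to-lowest level per kilobase, had 10.6, 9.83 and 9.32 CPM in the T1 libraries and 34.2, 36.2 and 36.2 in the T2 libraries, against 1.09, 0.723 and 0.661 in the euploid tetrad libraries. SPB1 was at 9.29, 8.60 and 9.56 in the A1 libraries, 11.8, 12.5 and 12.2 in A2 and 43.3, 42.4 and 43.6 in A3, against 1.01, 1.70 and 1.07 in the euploid a-selection libraries, and at 167 and 169 CPM in the haploid control libraries. NOP2 changed by 4.07 ± 0.06 in the tetrad comparison and 1.59 ± 0.04 in the a-selection comparison. SPB1 changed by 4.50 ± 0.12 in the tetrad comparison and 3.73 ± 0.10 in the a-selection comparison, and RRP8, which methylates an adenine, by 2.00 ± 0.09 in the tetrad comparison and 1.96 ± 0.07 in the a-selection comparison. The Noc proteins MAK21, NOC2 and NOC3, which form the early Noc1-Noc2 and the later Noc2-Noc3 complexes, had tetrad changes of 2.83, 4.16 and 3.77 and a-selection changes of 2.30, 2.49 and 2.18.

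Factors that stay on until late steps split into strong and weak responders. TIF6 (YPR016C) encodes the anti-association factor that keeps the pre-60S particle from joining the small subunit, and it had the highest level per kilobase of the 48 genes. TIF6 had 111, 116 and 114 CPM in the T1 libraries and 189.7, 195 and 193 in the T2 libraries, against 76.0, 73.9 and 69.8 in the euploid tetrad libraries. TIF6 was at 125, 128 and 133 in the A1 libraries, 127, 132 and 122 in A2 and 221, 217 and 225 in A3, against 99.3, 99.5 and 96.9 in the euploid a-selection libraries, and at 441 and 441 CPM in the haploid control libraries. Its log2 change, 1.01 ± 0.03 in the tetrad comparison and 0.64 ± 0.03 in the a-selection comparison, was the smallest of the 48 genes in both routes. TIF6 alone made up 31.1% of the summed CPM of the 48 genes in the euploid tetrad population and 21.8% in the euploid a-selection population, whereas the haploid control had 4.12%. MRT4 encodes a placeholder for the stalk protein P0. MRT4 had 18.8, 18.3 and 17.4 CPM in the T1 libraries and 65.2, 61.9 and 61.1 in the T2 libraries, against 0.855, 1.16 and 0.496 in the euploid tetrad libraries. MRT4 was at 22.7, 20.6 and 20.7 in the A1 libraries, 32.9, 31.4 and 31.2 in A2 and 103, 100.1 and 94.2 in A3, against 2.49, 2.50 and 2.46 in the euploid a-selection libraries, and at 346 and 340.3 CPM in the haploid control libraries. It changed by 5.30 ± 0.10 in the tetrad comparison and 4.03 ± 0.07 in the a-selection comparison. RLP24, a placeholder for Rpl24, changed by 4.89 ± 0.07 in the tetrad comparison and 3.18 ± 0.06 in the a-selection comparison. The export factor gene ARX1 changed by 2.63 ± 0.07 in the tetrad comparison and 2.16 ± 0.06 in the a-selection comparison, and REI1, whose protein releases Arx1 in the cytoplasm, by 4.21 ± 0.17 in the tetrad comparison and 2.62 ± 0.13 in the a-selection comparison. REI1 shares 453 bases, 38.3% of its length, at 100% identity with the annotated gene SLM6, which may make its counts uncertain. The sequence match alone does not tell an overlap of the 2 genes at one locus from a second copy.

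The other 14 nucleolar factors had a median change of 4.72 in the tetrad comparison and 3.06 in the a-selection comparison. PWP1, a WD40-repeat protein gene, had the largest a-selection change. PWP1 had 19.7, 18.6 and 20.2 CPM in the T1 libraries and 69.8, 70.5 and 68.1 in the T2 libraries, against 0.777, 0.867 and 0.909 in the euploid tetrad libraries. PWP1 was at 19.8, 18.8 and 19.4 in the A1 libraries, 25.2, 24.5 and 25.1 in A2 and 76.1, 77.4 and 74.4 in A3, against 1.84, 1.64 and 2.02 in the euploid a-selection libraries, and at 267 and 280.1 CPM in the haploid control libraries. NSA2, an intermediate factor gene, had 12.9, 12.9 and 10.49 CPM in the T1 libraries and 41.0, 36.3 and 36.4 in the T2 libraries, against 0.311, 0.361 and 0.496 in the euploid tetrad libraries. NSA2 was at 9.72, 10.3 and 11.2 in the A1 libraries, 10.3, 11.7 and 12.5 in A2 and 39.7, 40.5 and 41.0 in A3, against 2.01, 1.28 and 1.89 in the euploid a-selection libraries, and at 154 and 157 CPM in the haploid control libraries. PWP1 changed by 5.42 ± 0.07 in the tetrad comparison and 4.17 ± 0.06 in the a-selection comparison. NSA2 changed by 5.76 ± 0.16 in the tetrad comparison and 3.28 ± 0.11 in the a-selection comparison, next to MAK16 in the tetrad route. The RNA-binding protein gene NOP4 had 14.0, 16.7 and 16.3 CPM in the T1 libraries and 51.3, 46.9 and 43.0 in the T2 libraries, against 1.09, 1.16 and 1.49 in the euploid tetrad libraries. NOP4 was at 17.3, 16.3 and 18.7 in the A1 libraries, 22.5, 21.5 and 22.8 in A2 and 57.4, 60.8 and 58.7 in A3, against 2.67, 2.50 and 2.52 in the euploid a-selection libraries, and at 171 and 181 CPM in the haploid control libraries. NOP4 changed by 4.45 ± 0.11 in the tetrad comparison and 3.47 ± 0.09 in the a-selection comparison, and it overlaps YPL044C by 536 bases, a gene with 59 counts in all against 13116 for NOP4. NOP16, with the next-to-highest level per kilobase, had 47.1, 44.2 and 46.8 CPM in the T1 libraries and 122, 119.7 and 123 in the T2 libraries, against 12.7, 12.4 and 14.1 in the euploid tetrad libraries. NOP16 was at 52.9, 46.0 and 51.4 in the A1 libraries, 52.7, 56.1 and 55.02 in A2 and 101, 109.5 and 109 in A3, against 18.9, 23.1 and 20.1 in the euploid a-selection libraries, and at 207 and 212 CPM in the haploid control libraries. NOP16 changed by 2.51 ± 0.06 in the tetrad comparison and 1.68 ± 0.05 in the a-selection comparison. LOC1 and PUF6 encode RNA-binding proteins that also act in ASH1 mRNA localisation, and their changes were far apart, at 1.55 ± 0.05 in the tetrad comparison and 0.94 ± 0.04 in the a-selection comparison for LOC1, and 5.05 ± 0.13 in the tetrad comparison and 3.04 ± 0.08 in the a-selection comparison for PUF6.

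Ordered by level per kilobase, the 48 genes kept close ranks between A1 and A2 (Spearman's rho 0.991 over 48 genes), T1 and A1 (0.964), and T2 and A3 (0.951). The rho with the haploid control was 0.902 for A3, 0.848 for T2, 0.448 for the a-selection euploids and 0.326 for the euploid tetrad population. The SD of log2 level per kilobase among the 48 genes was 1.19 and 1.02 in the T1 and T2 populations, while A1, A2 and A3 had 1.15, 1.11 and 0.98. It was 1.78 and 1.64 in the euploid tetrad and a-selection populations, and 0.88 in the haploid control. In the euploid tetrad population 15 genes were under 1 CPM, and TIF6, SPB4, LOC1, NOP16 and DBP9 made up 53.6% of the summed level. These are descriptions across genes of the same libraries, and low counts add spread in the euploid populations, where the median CV between libraries was 17.1% (tetrad) and 8.96% (a-selection), and 1.67% in the haploid control.

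The populations of one route also differed from each other. All 48 genes were higher in T2 than in T1 (median log2 difference 1.78), where 35.9% of all tested genes were called higher. All 48 were higher in A3 than in A1 (1.74, with 37.2% of all genes called higher) and in A3 than in A2 (1.40, with 34.2%). CGR1 showed the widest difference between T2 and T1. It had 3.37, 3.90 and 4.24 CPM in the T1 libraries and 23.8, 20.4 and 19.5 in the T2 libraries, against 0.155, 0.289 and 0.413 in the euploid tetrad libraries. CGR1 was at 5.10, 5.42 and 4.96 in the A1 libraries, 5.25, 5.17 and 5.96 in A2 and 22.7, 22.3 and 22.4 in A3, against 0.592, 0.365 and 0.567 in the euploid a-selection libraries, and at 108 and 109 CPM in the haploid control libraries. T2 exceeded T1 by 2.46 ± 0.10 in CGR1, and the changes over the euploid libraries were 4.95 ± 0.18 in the tetrad comparison and 4.05 ± 0.14 in the a-selection comparison. Between A1 and A2, 38 of 48 genes were lower in A1, where 18.8% of all genes were called lower, and none was higher (15.4% of all genes were). The median difference was -0.31. The 82 genes of large-subunit ribosomal proteins, the proteins that these factors help to place, differed in direction between A1 and A2, with 43 called higher in A1, 2 lower and a median of 0.10.

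Across routes, T1 was set against A2 and T2 against A3. In T1, 38 of 48 genes were lower than in A2, where 34.3% of all tested genes were called lower, and none was called higher (27.9% of all genes were). The median difference was -0.33, against -0.02 over all tested genes. Large-subunit ribosomal protein genes again differed in direction, with 58 of 82 higher in T1, 6 lower and a median of 0.24. In T2, 28 genes were lower than in A3 and 9 higher, where 38.3% of all genes were called lower and 23.5% higher. The median difference of the 48 genes there was -0.15, against -0.05 over all tested genes, and it was -0.09 with counts centred on each chromosome's median and -0.10 with only the groups compared. DRS1 was highest in T2 relative to A3, at 0.51 ± 0.04 (log2, adjusted p = 1.06e-09 in edgeR), and CIC1 lowest, at -0.72 ± 0.05 (adjusted p = 1.05e-11 in edgeR).

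**Figure D4:**
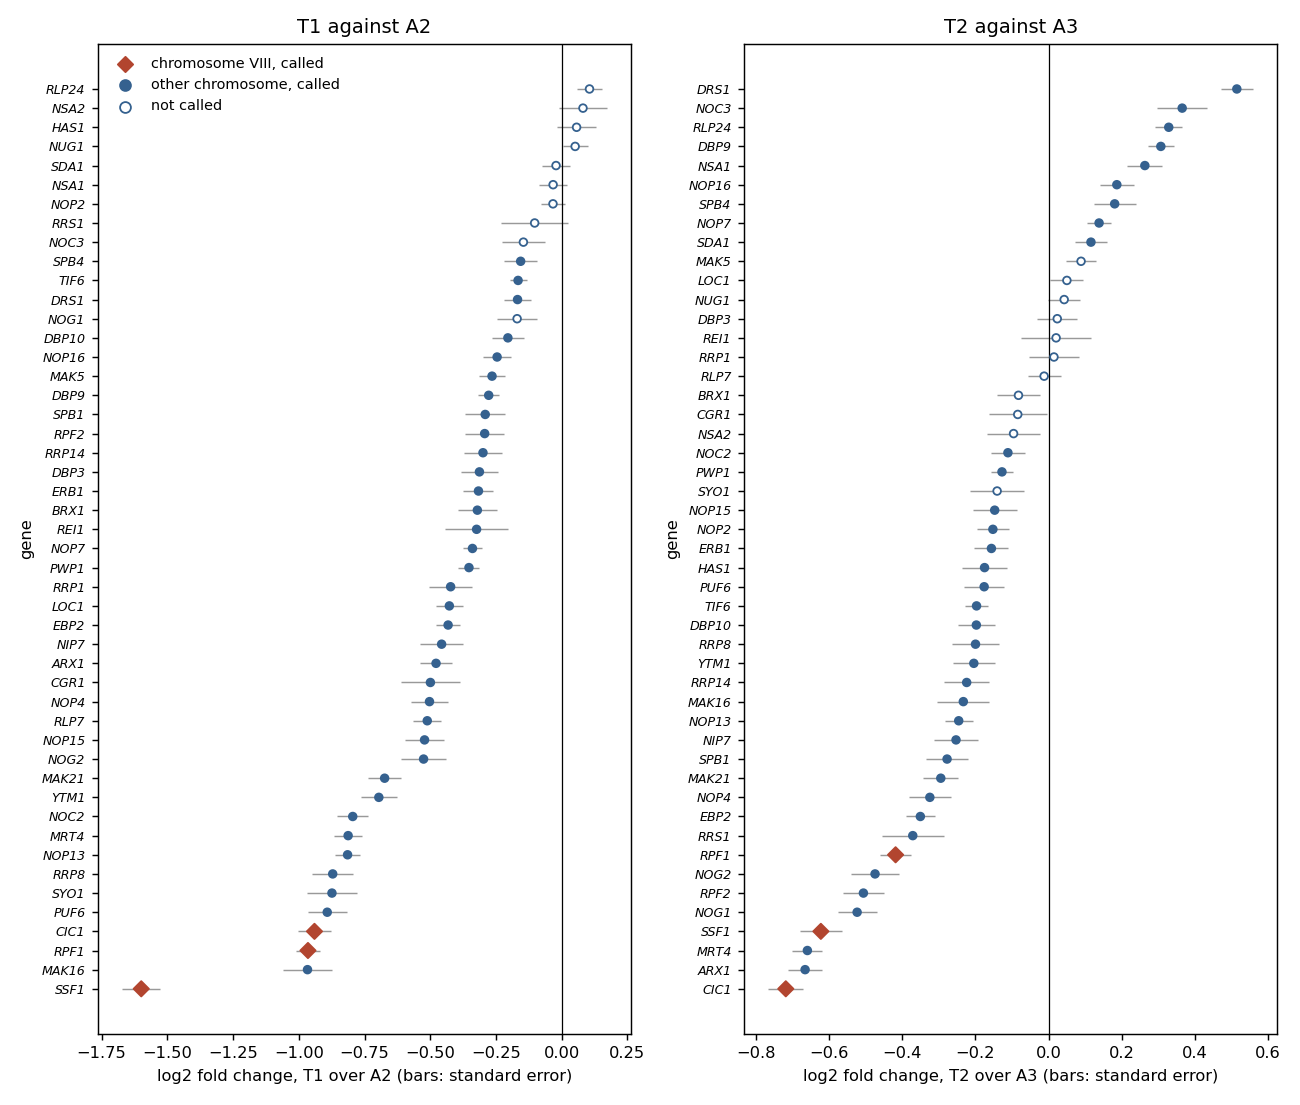
Log2 difference of each of the 48 genes (rows, sorted within each panel) in T1 over A2 (left) and T2 over A3 (right), with standard errors; diamonds mark the 3 genes on chromosome VIII and open symbols genes that were not called. SSF1 (-1.60) is lowest in T1 against A2, and CIC1 (-0.72) is lowest in T2 against A3, where MRT4 (-0.52) is lowest once counts are centred by chromosome.

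Of the 48 genes, 3 lie on chromosome VIII: SSF1 (YHR066W, a nucleolar factor), CIC1 (YHR052W) and RPF1 (YHR088W). All 3 were lower in T1 than in A2, by -1.60 ± 0.07, -0.94 ± 0.06 and -0.97 ± 0.05, and their median was -0.97, against -0.32 for the other 45 genes. SSF1 had 7.79, 6.50 and 6.20 CPM in the T1 libraries and 33.3, 31.6 and 30.5 in the T2 libraries, against 0.544, 0.578 and 0.579 in the euploid tetrad libraries. SSF1 was at 13.5, 12.1 and 14.7 in the A1 libraries, 20.8, 20.8 and 20.4 in A2 and 49.8, 47.4 and 49.5 in A3, against 1.84, 1.89 and 1.83 in the euploid a-selection libraries, and at 91.9 and 91.6 CPM in the haploid control libraries. CIC1 had 12.4, 11.7 and 11.9 CPM in the T1 libraries and 49.2, 48.1 and 52.5 in the T2 libraries, against 0.777, 0.795 and 1.07 in the euploid tetrad libraries, and it was at 15.2, 17.5 and 17.3 in the A1 libraries, 23.2, 23.6 and 22.3 in A2 and 84.8, 81.0 and 80.5 in A3, against 1.66, 2.56 and 2.21 in the euploid a-selection libraries. RPF1 had 31.8, 28.3 and 30.4 CPM in the T1 libraries and 81.9, 81.3 and 81.0 in the T2 libraries, against 3.57, 3.69 and 4.46 in the euploid tetrad libraries, and it was at 45.9, 42.2 and 44.5 in the A1 libraries, 60.6, 55.7 and 60.4 in A2 and 109.9, 109 and 108 in A3, against 8.41, 10.04 and 9.71 in the euploid a-selection libraries. All 292 tested genes of chromosome VIII together had a median of -0.42 in T1 against A2, and of 0.40, 0.47 and 0.46 in A1, A2 and A3 over the euploid a-selection population. With the counts centred on each chromosome's median, SSF1 was still the lowest of the 48 genes in T1 against A2 (-1.23). CIC1 (-0.57) and RPF1 (-0.59) then had ranks 12 and 9 from the lowest, and in T2 against A3 RPF1 was no longer called (-0.05, adjusted p = 0.291 in edgeR). In that comparison CIC1 moved to -0.35 and rank 7 from the lowest, MRT4 on chromosome XI became the lowest at -0.52, and DRS1 stayed the highest at 0.33. SSF1 is 92.2% identical over its length to SSF2 on another chromosome, so its counts are uncertain. SSF2 had a log2 difference of -0.78 ± 0.08 in T1 against A2, and changes of 1.31 ± 0.09 in the tetrad comparison and 1.41 ± 0.08 in the a-selection comparison, and those of SSF1 were 4.68 ± 0.13 and 3.68 ± 0.08. Centring also moved genes on other chromosomes, in either direction. In T1 over the euploid tetrad population, SPB4 and LOC1 on chromosome VI went from 0.71 to 0.96 and from 0.86 to 1.12. MAK16 on chromosome I went from 7.17 to 7.48 in T2, and MRT4 from 3.68 to 3.44 in A2, each over the euploid population of its route. The karyotypes of the populations are not given in the labels, and the part of chromosome number in these values was not tested.

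The change was larger in the tetrad route for most genes. The difference between the routes (tetrad change minus a-selection change) was called above 0 in 44 of 48 genes, where 33.1% of all tested genes were, and its median was 1.24, against -0.03 over all tested genes. CGR1, DBP10, RRP8 and RRS1 were not called. Libraries were the unit of this test, and each route had a single euploid population. What is particular to that population therefore cannot be told apart from the route. DRS1 had the widest difference, 2.71 ± 0.13 (adjusted p = 9.06e-15 in edgeR). DRS1 had 40.5, 40.8 and 36.3 CPM in the T1 libraries and 148, 155 and 157 in the T2 libraries, against 1.87, 2.17 and 2.40 in the euploid tetrad libraries. DRS1 was at 35.8, 37.8 and 37.4 in the A1 libraries, 42.8, 43.7 and 46.0 in A2 and 105, 106 and 111 in A3, against 8.94, 11.6 and 9.90 in the euploid a-selection libraries, and at 259 and 272 CPM in the haploid control libraries. NOP13, a nucleolar RNA-binding protein gene, followed at 2.58 ± 0.15. NOP13 had 20.5, 19.5 and 20.2 CPM in the T1 libraries and 72.3, 69.2 and 70.8 in the T2 libraries, against 0.777, 0.651 and 0.992 in the euploid tetrad libraries. NOP13 was at 26.4, 26.3 and 26.1 in the A1 libraries, 33.5, 37.4 and 35.3 in A2 and 84.0, 83.4 and 84.1 in A3, against 5.04, 5.17 and 6.24 in the euploid a-selection libraries, and at 186 and 179 CPM in the haploid control libraries. It overlaps YNL174W by 539 bases, a gene with 89 counts in all against 17097 for NOP13. The 2 euploid populations themselves differed, with 42 of 48 genes higher in the a-selection one (median 1.18), where 35.5% of all genes were called higher. DBP10 was lower there (35.1% of all genes were called lower), at 5.69, 7.79 and 7.94 CPM in the euploid a-selection libraries, against 8.08, 9.18 and 9.01 CPM in the euploid tetrad libraries (-0.30 ± 0.10). Across the 48 genes the tetrad and a-selection changes, which share no library, had a Pearson's r of 0.811 and a Spearman's rho of 0.765, and Pearson's r over the 6111 tested genes was 0.79.

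Relative to the haploid control, all 48 genes were lower in the euploid tetrad population (median log2 -6.82), where 43.6% of all genes were called lower, and in the euploid a-selection population (-5.16, with 44.4%). They were also lower in the mean of T1 and T2 (-2.44, with 44.3%) and in the mean of A1, A2 and A3 (-2.50, with 44.8%). The 4 comparisons share the haploid libraries. TIF6 was the least lowered in both euploid populations, at -2.59 ± 0.04 in the tetrad one and -2.16 ± 0.04 in the a-selection one. MAK16 (-9.31 ± 0.15) and RRS1 (-7.79 ± 0.14) were the most lowered. TMM factors were 0.746 to 0.755 in the haploid control, 0.849 to 0.863 in the euploid tetrad libraries and higher in the other libraries.

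Genes that cells switch on when glucose runs out fell in the tetrad aneuploid populations. The summed level of 18 such genes (HSP12, HSP26, CTT1, ADH2, HXT5 and others) was 22277, 22329.5 and 22172 CPM in T1 and 13128, 13048 and 13084 in T2, against 52946, 52079.5 and 52079 in the euploid tetrad libraries. It was 25866, 26383 and 26259 CPM in A1, 23735, 23253 and 23283 in A2 and 16369.6, 16733 and 16650.2 in A3, against 39252, 39608 and 38602 in the euploid a-selection libraries, and 404 and 407 CPM in the haploid control. In the tetrad comparison all 18 fell (median -2.65), where 44.8% of all tested genes were called lower. MLS1 (-4.26) and SPG1 (-3.79) fell most, and HXK1 (-0.75) and SSA3 (-0.70) least. In the a-selection comparison 13 fell, 3 rose and 2 were not called (median -0.62), where 39% of all tested genes were called lower and 39.8% higher. MLS1 had mean levels of 78.9, 57.6 and 19.4 CPM in A1, A2 and A3, against 28.3 CPM in the euploid a-selection population. In the same order PCK1 had 569, 376 and 277 CPM, against 295 CPM, and HSP26 had 639, 579 and 424 CPM, against 485 CPM. The haploid control had the highest sum of the 48 assembly factor genes and the lowest sum of these 18, and the euploid tetrad population the reverse. A few genes carried much of the sum of the 18. In the euploid a-selection population HSP12, HXK1 and CTT1 had 12500, 9582 and 7616 CPM of a mean sum of 39154 CPM. The median level of the 18 genes was also lowest in the haploid control (9.11 CPM) and highest in the euploid tetrad population (1301 CPM). The part of growth phase at harvest in either list was not tested.

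**Figure D5:**
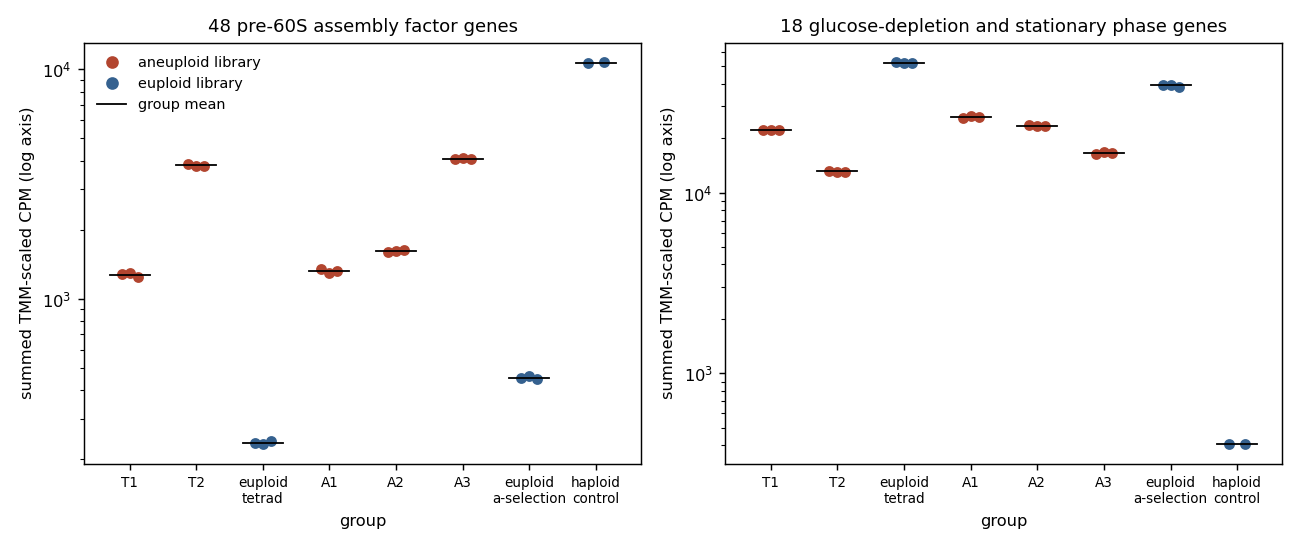
Summed TMM-scaled CPM (log axes) of the 48 assembly factor genes (left) and of 18 genes of glucose depletion and stationary phase (right) in each library (points), with group means (lines). The haploid control is highest on the left and lowest on the right, and the euploid tetrad libraries are lowest on the left and highest on the right.

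Related gene lists moved with the 48 genes. Of 37 other large-subunit factor genes that were tested, 36 rose and 1, RSA1, fell in the tetrad comparison (median 2.90), and 36 rose in the a-selection comparison (median 1.96). The largest tetrad changes in that list were those of YVH1 (5.04) and RRB1 (4.92), and the smallest were those of SDO1 (0.39) and RSA1 (-0.55). Of 58 small-subunit factor genes, 56 rose and 2 fell (median 3.51) in the tetrad comparison, and 57 rose and 1 fell (median 2.45) in the a-selection comparison. Its largest tetrad changes were those of the methyltransferase gene NOP1 (5.46) and KRR1 (5.21), and RIO1 (-1.13) and ESF1 (-0.72) fell. Of 82 large-subunit ribosomal protein genes, 81 rose in the tetrad comparison (median 2.63) and 79 in the a-selection comparison (median 1.34). Many ribosomal protein genes have near-identical paralogues, which makes their single values uncertain. The 48 genes had medians of 4.31 and 2.78 in the same comparisons, and over all tested genes the medians were -0.05 and 0.00. Of all tested genes, 39.9% were called higher and 44.8% lower in the tetrad comparison. In the a-selection comparison these shares were 39.8% and 39%.

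Among 9 regulators of ribosome synthesis, the gene of the PAC-binding repressor Tod6 rose most, by 2.36 ± 0.12 in the tetrad comparison and 1.73 ± 0.10 in the a-selection comparison (log2 ± SE). DOT6, its paralogue, fell by 0.20 in the tetrad and 0.41 in the a-selection comparison, and STB3 fell by 0.29 in the tetrad and 0.59 in the a-selection comparison. IFH1, which encodes a coactivator of ribosomal protein genes, rose by 1.54 ± 0.06 in the tetrad and 0.59 ± 0.05 in the a-selection comparison. FHL1, its DNA-bound partner, rose by 0.21 in the tetrad and 0.20 in the a-selection comparison. RAP1 rose by 0.39 in the tetrad comparison and had -0.05 in the a-selection comparison, where it was not called. SFP1, an activator gene, had 0.01 in the tetrad comparison, where it was not called, and fell by 0.10 in the a-selection comparison. SCH9, a growth kinase gene, fell by 0.72 in the tetrad and 0.14 in the a-selection comparison. CRF1, a corepressor gene, fell by 1.03 in the tetrad comparison and rose by 0.21 in the a-selection comparison. These are RNA levels only.

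Genes with both motif cores spanned the whole range of tetrad changes, but PWP1, with the largest a-selection change, had the PAC core alone. The median tetrad change was 4.26 in the 39 genes with both cores, 4.45 in the 7 with PAC without RRPE and 3.52 in the 2 with RRPE without PAC (SPB1 4.50 and NSA1 2.55). TIF6, with a change of 1.01, and MAK16, with 6.03, both had both cores, as their sequences above show. In TIF6 the RRPE cores lay at -208 and -197 bases and the PAC core nearest the start at -95 bases, and in MAK16 the RRPE core lay at -134 and the PAC core at -124 bases.

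The libraries held 12719710 to 19327344 counts, and replicate libraries had a common biological coefficient of variation of 5.05%. Marker genes differed between the groups. Alpha-cell markers (4 genes) summed to 1765 CPM in T1 and 1550 in T2, against 7859 in the euploid tetrad population, and to 58.7 CPM in A1, 54.7 in A2 and 61.6 in A3, against 79.3 in the euploid a-selection population. The haploid control had 49.9 CPM. The sum of a-cell markers (6 genes) was also highest in the euploid tetrad population, at 5259 CPM, against 2711 in T1 and 2558 in T2. It was 1052, 1143 and 1442 CPM in A1, A2 and A3, against 1513 in the euploid a-selection population, and 1368 CPM in the haploid control. BY4741 usually carries URA3, LEU2, HIS3 and MET17 deleted in whole or in part. The level of URA3 was 181 CPM in T1, 141 CPM in T2 and 656 CPM in A1, with 0.24 CPM or less elsewhere, and LEU2 had 18.6 to 376 CPM in the 7 populations, against 0.07 CPM in the haploid control. HIS3 was at 16.8 to 63.3 CPM and MET17 at up to 317 CPM. The part of mating type and of these markers in the levels of the 48 genes was not tested.

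In the authors' deposited table of a comparison, all 48 genes had a log2 fold change above 0, with a median of 2.97 and a range of 0.83 to 4.11. The authors' deposited table gave an adjusted p under 0.05 for 22 of them (45.8%), against 222 of all 6316 genes with a value (3.51%). PWP1 was highest in the authors' deposited table at 4.11. The adjustment behind that column is not stated. Benjamini-Hochberg values computed here from the p-values of the authors' deposited table were under 0.05 for 48 of 48 genes, the largest being 0.0314, and for 40% of all genes, and the table rests on the same libraries.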

How the data were processed

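RNA libraries (23) were sequenced by the submitters, and the count of reads per gene was deposited as 1 column per library with no normalization, per the file headers. The submitters' processing notes name HISAT2 2.0.5 and HTSeq 0.6.1p1, which align and count reads, and DESeq2 1.14.1, with build R64. A second deposited table gave the authors' own comparison as log2 fold changes with standard errors, a mean signal (normalized count), a test score and p-values.

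The 48 genes, the other gene lists and the comparisons were chosen with earlier results of these data known. Groups came from the sample titles. After filterByExpr, TMM-scaled counts of all libraries entered edgeR 4.0.16 in R 4.3.3 (quasi-likelihood test, a coefficient for each group, 15 residual degrees of freedom). Calls were made at 0.05 after Benjamini-Hochberg adjustment across the 6111 genes. A second fit used 7 summed populations. Levels are TMM-scaled CPM, and CPM per kilobase where genes are compared. Totals of 12719710 to 19327344 counts set the precision, and each replicate pair differed by more than sampling noise. Per-library values are given for the 15 genes named first in the list, for the 2 largest and 2 smallest changes in each route, for the 2 highest and 2 lowest levels per kilobase, and, chosen after their values were seen, for SSF1, CIC1, RPF1, DRS1, NOP13, CGR1 and DBP10. Of the other factor lists and the glucose-depletion list, the genes with the 2 largest and 2 smallest tetrad changes are named, as are the regulators. Promoter windows came from the RefSeq R64 genome, and motif cores were searched as exact letters. Alternatives were other scaling factors (RLE, upper quartile), no filter, DESeq2 1.42.0, only the groups compared, a replicate block, offsets centred by chromosome, an adjusted p under 0.01, and leaving out each library or population. The steps were tested on simulated counts.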

Additional observations from a re-analysis of the deposited data

Results flagged for a closer look

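The change over the euploid population differed between the tetrad and a-selection routes in 44 of the 48 genes by a test of the difference itself (edgeR's quasi-likelihood test, adjusted over all tested genes). Libraries were the unit of this test, and each route had 1 euploid population. What is particular to that population therefore cannot be told apart from the route. All 44 were called above 0, where 33.1% of all tested genes were. In either direction, 4377 of the 6111 tested genes were called. DRS1 and NOP13 had the widest differences, 2.71 and 2.58 (tetrad change minus a-selection change, log2). In both genes the euploid tetrad libraries were lower than the euploid a-selection libraries, at 0.651 to 0.992 CPM against 5.04 to 6.24 CPM in NOP13, and 1.87 to 2.40 CPM against 8.94 to 11.6 CPM in DRS1.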

How the results depend on the processing

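All 48 genes kept their direction and their call under every alternative (other scaling factors, no filter, DESeq2, only the groups compared, a replicate block, offsets centred by chromosome, an adjusted p under 0.01 and each left-out library) in the 14 comparisons in which all 48 were called. The median tetrad change ranged from 4.29 to 4.39 and the median a-selection change from 2.66 to 2.80. The count of lower genes was 31 to 39 (main 38) for A1 against A2, 36 to 39 (main 38) for T1 against A2 and 19 to 28 (main 28) for T2 against A3. It was 39 to 45 higher genes (main 42) for the euploid a-selection against the euploid tetrad population and 41 to 45 (main 44) for the difference between routes. With one library left out, these counts were 34 to 39, 36 to 39, 25 to 28, 40 to 43 and 40 to 44, in the same order. With the population as the unit, DESeq2 called 48 genes (21.3% of all genes), and edgeR called 42, then 0 without T1, 0 without T2, 41 without A1, 0 without A2 and 0 without A3. In these 4 fits with 0 calls the smallest adjusted p was 0.0514 to 0.0662, the median change was 3.11 to 3.78, and 46 to 48 genes had an unadjusted p under 0.05. DESeq2 with a population left out, added after the data were seen, called 46 to 48 (18.4% to 21.5% of all genes). Without A1 the smallest adjusted p in edgeR was 0.0423, on the other side of the 0.05 threshold. Why the calls were lost was not tested.

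Replicate numbers do not pair libraries: same-numbered libraries of different groups had correlations of -0.170 to 0.263 (median 0.00) over 77 pairs. With a replicate block the counts were 37 for A1 against A2, 27 for T2 against A3 and 43 for the difference between routes, and no other count moved. Upper-quartile scaling moved the median of all genes by -0.11 in the euploid tetrad population against the haploid control, and no other alternative moved a median over all tested genes by over 0.1. Chromosome centring moved the median of the 48 genes by -0.14 in A2, -0.12 in the a-selection comparison and 0.12 in the difference between routes, and leaving out euploid tetrad replicate 1 moved it by -0.15 in T1. In the euploid tetrad libraries 6 genes had under 10 counts each, which limits the precision of their changes.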
